A study of Homo sapiens with 8 samples.

Results

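TPX2, the Aurora kinases AURKA and AURKB, and 7 genes that work with them on the mitotic spindle (PLK1, BORA, INCENP, BIRC5, CDCA8, HMMR and NUSAP1) were followed in ribosome profiling of IMR32 cells, a human neuroblastoma line with amplified MYCN. The genes were picked by name, and all 10 were found among the 60651 genes of the deposited table by their Ensembl identifiers. All 10 passed the filter on low values (a mean of at least 1 TPM), as 11778 genes did in all. The 8 libraries, labelled wild type, came from cells treated for 6 h with CR31B, a silvestrol analogue that inhibits the RNA helicase eIF4A (n = 4), or with the solvent DMSO at 0.1% (n = 4). Cycloheximide was added to all cells before harvest. The labels call the replicates biological and give no dose of CR31B. Values are TPM, a unit of transcript abundance in which footprint reads are divided by transcript length and scaled to the same sum in every library.

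Mitotic kinases are switched on by protein partners. TPX2 is released from importins by the GTPase Ran near chromosomes, nucleates microtubules and holds Aurora A, the product of AURKA, in its active form on spindle poles. Aurora A, helped by Bora, phosphorylates and activates the Polo-like kinase PLK1. Aurora B, the product of AURKB, works in the chromosomal passenger complex, in which INCENP is the scaffold and activator, while survivin (BIRC5) and borealin (CDCA8) bring the complex to centromeres. In neuroblastoma Aurora A is also known to protect the MYCN protein from degradation. The title of the series puts TPX2 downstream of eIF4A, a helicase that opens structured 5′ leaders for the scanning ribosome, and compounds of the silvestrol class are known to clamp eIF4A onto purine-rich RNA.

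The start codons of the 10 genes are shown because eIF4A helps ribosomes to reach them. They were taken from 1 representative GENCODE release 29 transcript per gene (GRCh38), with 12 bases on each side and the start codon in capitals.
TPX2, chr20:31757477-31757479, plus strand: aagtgggagacaATGtcacaagttaaa
AURKA, chr20:56388195-56388197, minus strand: gctagaggcatcATGgaccgatctaaa
AURKB, chr17:8210222-8210224, minus strand: ttctctctaaggATGgcccagaaggag
INCENP, chr11:62128162-62128164, plus strand: aacagagccaccATGgggacgacggcc
BIRC5, chr17:78214317-78214319, plus strand: ggcggcggcggcATGggtgccccgacg
CDCA8, chr1:37692691-37692693, plus strand: ccgccgagcgccATGgctcctaggaag
PLK1, chr16:23678933-23678935, plus strand: agcttcgggagcATGagtgctgcagtg
BORA, chr13:72727843-72727845, plus strand: gctggttcgcggATGgcgggacgacac
HMMR, chr5:163460693-163460695, plus strand: ctggccgtcaacATGtcctttcctaag
NUSAP1, chr15:41332958-41332960, plus strand: tttcgaatcgcgATGatcatcccctct

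A purine stood 3 bases before the start codon in 9 of the 10 genes, all but BORA, against 85.05% of 17893 representative coding transcripts. A G followed the start codon directly in 6 of the 10, against 50.6%. The annotated leaders differed far more than the start codons. TPX2 had a leader of 528 nt, longer than 90.2% of those transcripts, whereas the other 9 genes ranged from 36 nt in HMMR to 273 nt in CDCA8, around an overall median of 187 nt. The TPX2 leader also held a run of 17 bases that were all A or G, longer than the longest run in 94.8% of leaders. That share was not matched for leader length, and a longer leader has more room for such a run. In the other 9 genes the longest run was 4 to 9 bases, and the overall median was 8. The GC content of the TPX2 leader was 55.3%, above that of only 25.1% of leaders, beside an overall median of 64%. The run of TPX2, in capitals with 5 bases on each side, ends 425 bases before the start codon.
TPX2 purine run: gccgtGGGAAGAAAAGAGGGAGcagct

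The promoters are shown because genes active late in the cell cycle are known to share CHR elements and CCAAT boxes. RefSeq (GRCh38.p14) gave a promoter for 7 of the 10 genes, and TPX2, AURKA and BIRC5 had no entry. In the 250 bases before the start site, 6 of the 7 held the CHR letters TTTGAA or TTTAAA on either strand, against 21.9% of 35116 promoters in the table, which also holds non-coding genes. CCAAT was found on either strand in 7 of the 7, against 32.0%. RefSeq start sites can differ from the starts of the GENCODE transcripts used above. In BORA the window runs past the start codon shown, and the CHR match spans the start of the GENCODE gene. The CHR matches printed below for INCENP, CDCA8, PLK1, HMMR and NUSAP1 lie inside the GENCODE gene. The CHR match nearest to the start site is given in capitals for each gene. In CDCA8 the CHR letters overlap a CCAAT match by 1 base, in HMMR a pair of CCAAT matches overlap each other, and AURKB had no CHR letters in this window, which says nothing of other sequence.
INCENP, chr11:62123993-62124010, plus strand: ccttcagtTTTGAAaatc
CDCA8, chr1:37692485-37692506, plus strand: ctgtggagTTTGAAttgggtgg
PLK1, chr16:23678852-23678873, plus strand: gcgccgcgTTTGAAttcgggga
BORA, chr13:72727738-72727759, plus strand: tgcgttgaTTTGAAtttggagc
HMMR, chr5:163460602-163460623, plus strand: gatttgaaTTTGAAaccggtag
NUSAP1, chr15:41332833-41332854, plus strand: attcttcaTTTAAActgtctat

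Of 12 marker genes of adrenergic neuroblastoma, 11 had a mean of at least 1 TPM, TH being the exception, and of 13 markers of blood, connective tissue, vessels, epithelium, liver and Schwann cells only COL1A1 did. The summed level of those 13 ran from 7.06 to 13.9 TPM in CR31B and from 11.07 to 18.95 TPM in DMSO, with CD3E and PECAM1 at 0 in all 8 libraries. Genes above 0 numbered 17857 to 19758 in CR31B libraries and 19043 to 22270 in DMSO libraries, with CR31B lower in every replicate pair. TPM keeps no read depth, so the spread between libraries is the only error available. Protein-coding genes took 61.3% of TPM in CR31B replicate 1 and 58.4% in DMSO replicate 1, and from 51.8% to 57.2% in the other 6 libraries. The highest library of a group was replicate 1 in both groups for AURKB, BIRC5, CDCA8, HMMR and NUSAP1. The part that the coding share has in these values was not tested beyond the rescaled fits given below.

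The first comparison asked which of the 10 genes had other footprint levels under CR31B. INCENP rose, by 1.56-fold, and was the 1 gene of the 10 that passed (limma adjusted p under 0.05 over all genes tested). None of the other 9 passed, and their log2 fold changes ran from -0.34 for AURKB to 0.071 for BORA. Over all genes tested 879, or 7.46%, passed, with 3.45% higher and 4.02% lower in CR31B, so 1 of 10 is close to the background. INCENP was also the 1 gene of the 10 without overlap between groups, against 16.2% of all genes tested (8.07% with CR31B above and 8.14% with CR31B below). At an unadjusted p under 0.05 the count was again 1 of 10, against 23.4% of all genes tested. The median log2 fold change of the 10 was -0.030 with 4 above 0, beside 0.029 and 54.1% above 0 for all genes. A fit blocked on replicate number called 12.3% of all genes, and 2 of the 10, INCENP and AURKB. Leaving out 1 library took the 879 calls to 404 without DMSO replicate 4, 502 and 514 without DMSO replicates 1 and 2, and 516 without CR31B replicate 4. These are footprints of bulk cultures: fewer cells in mitosis and fewer footprints per cell cannot be told apart, and mRNA levels were not analysed here.

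**Figure D1:**
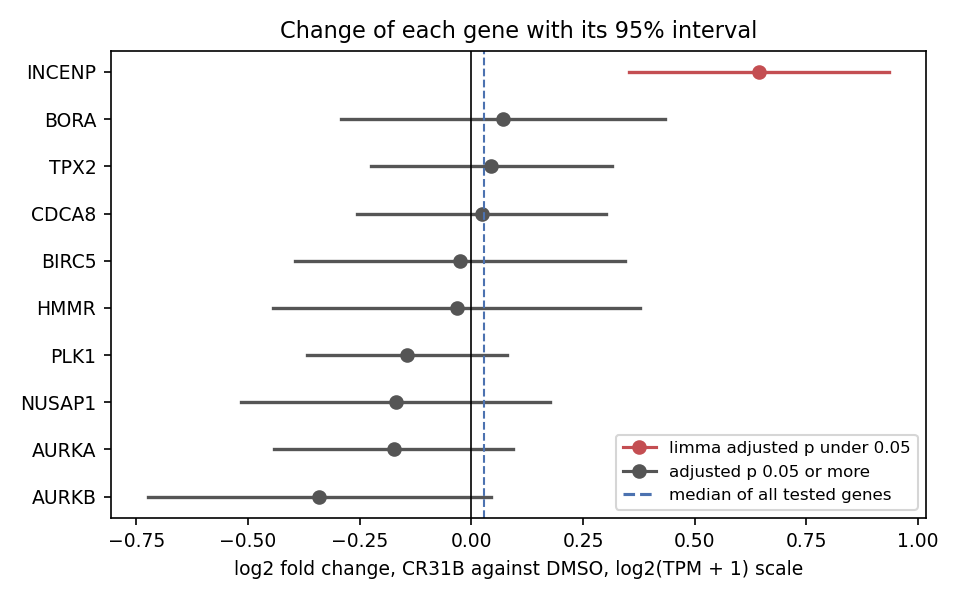
Log2 fold change of each of the 10 genes (points) with its 95% confidence interval (bars) from limma, CR31B against DMSO, 4 libraries each, on the log2(TPM + 1) scale. Only the interval of INCENP, from 0.35 to 0.94, lies clear of 0; the dashed line is the median of all tested genes, 0.029.

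INCENP (ENSG00000149503.13, GRCh38 chr11:62123973-62153163) encodes the scaffold that binds and activates Aurora B. It read 29.4, 31.6, 38.8 and 28.3 TPM for CR31B replicates 1 to 4, and 19.5, 17.9, 23.2 and 19.8 TPM for DMSO replicates 1 to 4. All 4 CR31B libraries lay above all 4 DMSO libraries. The means were 32.0 ± 4.71 and 20.1 ± 2.24 TPM (SD, n = 4 each), which is 0.64 as a log2 fold change with an SE of 0.13 and a limma adjusted p of 0.0165. The two-sided exact permutation p, which ignores pairs, was 0.0286, the smallest that 4 against 4 allow. INCENP was higher in 4 of 4 replicate pairs, and the sign-flip test within pairs gave 0.125, the smallest that 4 pairs allow. The limma adjusted p was 0.0546 without DMSO replicate 2 and 0.0544 without DMSO replicate 4, with log2 fold changes of 0.59 and 0.64. The change was 0.69 after rescaling over protein-coding genes.

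AURKB (ENSG00000178999.13, chr17:8204733-8210600), the kinase of the complex, read 164.9, 100.2, 113.8 and 110.7 TPM for CR31B replicates 1 to 4. For DMSO replicates 1 to 4 it read 193.0, 134.6, 138.8 and 149.4 TPM. The groups overlapped through CR31B replicate 1 alone, which lay above 3 DMSO libraries, while within every replicate pair the CR31B library was the lower one. The log2 fold change was -0.34, with a 95% confidence interval from -0.72 to 0.044 (SE 0.17) and a limma adjusted p of 0.271 that became 0.0413 with the replicate block. The 4 pair differences on the log2 scale were -0.23, -0.42, -0.28 and -0.43. The exact permutation p was 0.143, and the sign-flip test within pairs gave 0.125, the smallest that 4 pairs allow. With CR31B replicate 1 left out AURKB had a log2 fold change of -0.49 (limma adjusted p of 0.0748). After rescaling over protein-coding genes AURKB was at 269.1 in CR31B replicate 1 and 193.4 to 217.5 in the other 3 CR31B libraries, against 246.3 to 330.4 in DMSO, so this library still overlapped.

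Survivin and borealin, the subunits that place the complex on centromeres, differed less. CDCA8 (ENSG00000134690.11, chr1:37692418-37709719) read 19.7, 16.4, 15.3 and 16.9 TPM for CR31B replicates 1 to 4, and 19.5, 14.7, 16.1 and 16.9 TPM for DMSO replicates 1 to 4. BIRC5 (ENSG00000089685.15, chr17:78214186-78225636) stood at 127.3, 102.8, 94.6 and 103.9 TPM in CR31B and at 134.5, 108.7, 79.2 and 119.5 TPM in DMSO, in the same order. For both genes the groups overlapped over most of their range, and the lowest BIRC5 library was DMSO replicate 3. The log2 fold change was 0.023 for CDCA8 (95% confidence interval -0.26 to 0.30) and -0.026 for BIRC5 (-0.40 to 0.34), with limma adjusted p of 0.936 and 0.945. Differences inside these intervals remain compatible with the values of these 4 libraries a group.

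Ratios within a library do not depend on its total, so 8 ratios between partners were compared. Ratios are given in TPM and were tested as differences of log2(TPM + 1), with p-values adjusted over the 8. With 4 libraries in each group a ratio could pass only if 5 or more of the 8 reached the smallest exact p, and none passed. INCENP per AURKB had the widest difference. For CR31B replicates 1 to 4 it was 0.178, 0.316, 0.341 and 0.255, and for DMSO replicates 1 to 4 it was 0.101, 0.133, 0.167 and 0.132. Every CR31B library was above every DMSO library, and the ratio was 1.98-fold higher on the TPM + 1 scale (exact permutation p of 0.0286, adjusted 0.114). CDCA8 per AURKB was also higher without overlap, at 0.142 ± 0.0195 against 0.110 ± 0.00654 (SD, n = 4 each), with an exact permutation p of 0.0286 and an adjusted p of 0.114. BIRC5 per AURKB was higher in 4 of 4 pairs, but the groups overlapped (exact permutation p of 0.114, adjusted 0.305). AURKB is the denominator of all 3 ratios, so they are not independent of each other.

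**Figure D2:**
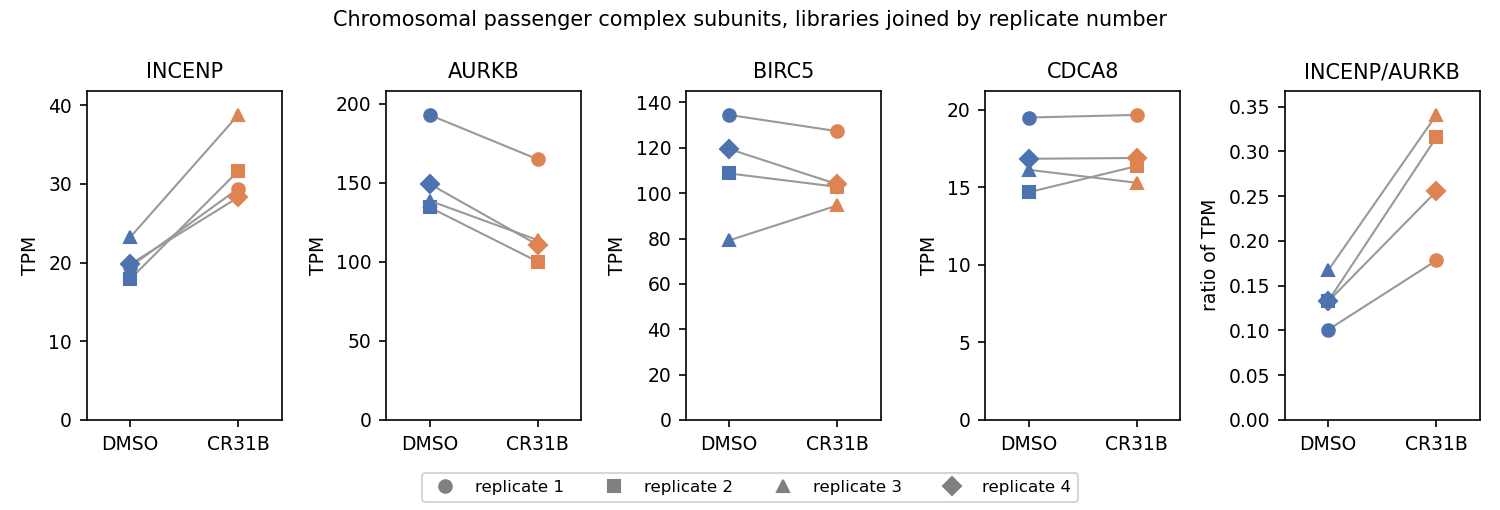
TPM of the 4 passenger complex subunits and the ratio of INCENP to AURKB (vertical axes from 0) in DMSO and CR31B libraries, with grey lines joining libraries of the same replicate number. INCENP goes up and AURKB goes down along all 4 lines, and the ratio goes from 0.101 to 0.167 in DMSO to 0.178 to 0.341 in CR31B.

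TPX2 (ENSG00000088325.16, chr20:31739271-31801805) read 31.1, 31.2, 39.6 and 32.1 TPM for CR31B replicates 1 to 4, and 36.6, 29.7, 30.0 and 33.2 TPM for DMSO replicates 1 to 4. CR31B replicate 3 was the highest library, and the other 3 CR31B libraries lay inside the DMSO range. The log2 fold change was 0.045 with a 95% confidence interval from -0.22 to 0.31 (SE 0.12). The limma adjusted p was 0.871. A fall of TPX2 by more than 0.22 on the log2 scale was outside this interval. Without CR31B replicate 3 the estimate was -0.036 with an SE of 0.12, so that bound depends on this library. TPM is scaled to the same sum in every library, so a fall shared by most genes would not be seen.

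AURKA (ENSG00000087586.18, chr20:56369389-56392337), which TPX2 activates, stood at 27.1, 28.7, 23.4 and 21.2 TPM in CR31B and at 29.2, 27.2, 26.8 and 29.9 TPM in DMSO, in the order of replicates 1 to 4. CR31B replicates 3 and 4 lay below every DMSO library, and replicates 1 and 2 lay inside the DMSO range. The log2 fold change was -0.17 with a 95% confidence interval from -0.44 to 0.094 (SE 0.12). The limma adjusted p was 0.426 and the exact permutation p 0.143, and without CR31B replicate 4 the estimate was -0.099. DMSO libraries varied little, with a coefficient of variation of 5.38%, against 13.6% in CR31B. TPX2 per AURKA was 1.14, 1.09, 1.69 and 1.51 for CR31B replicates 1 to 4, against 1.25, 1.09, 1.12 and 1.11 for DMSO. Only CR31B replicates 3 and 4 exceeded the DMSO range, and the groups overlapped (exact permutation p of 0.286, adjusted 0.419). AURKA per AURKB was 0.212 ± 0.0523 against 0.187 ± 0.0239 (SD, n = 4 each) and overlapped too, with an adjusted p of 0.457 from an exact permutation p of 0.400.

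PLK1 (ENSG00000166851.15, chr16:23677656-23690367), which drives mitotic entry and spindle formation, stood at 103.0, 89.5, 91.3 and 94.7 TPM in CR31B and at 108.0, 95.7, 106.1 and 108.9 TPM in DMSO, in the order of replicates 1 to 4. It was lower in CR31B in 4 of 4 pairs, while the ranges overlapped between 95.7 and 103.0 TPM. The log2 fold change was -0.14 with a 95% confidence interval from -0.37 to 0.079 (SE 0.10). The limma adjusted p was 0.429 and the exact permutation p 0.0571. PLK1 had the smallest spread of the 10 genes in CR31B, with a coefficient of variation of 6.34%.

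BORA (ENSG00000136122.18, chr13:72727749-72756198), the cofactor through which Aurora A reaches PLK1, was the lowest of the 10 genes. It stood at 6.62, 6.70, 4.03 and 6.44 TPM in CR31B and at 5.57, 6.16, 4.72 and 5.70 TPM in DMSO, in the same order. Of the CR31B libraries 3 lay above all DMSO libraries and replicate 3 lay below all of them. The log2 fold change was 0.071 with a 95% confidence interval from -0.29 to 0.43 (SE 0.16). The limma adjusted p was 0.844, and the estimate ran from 0.0085 without DMSO replicate 3 to 0.22 without CR31B replicate 3. BORA per PLK1 was higher in 3 of 4 pairs in TPM and in 4 of 4 on the log2(TPM + 1) scale that was tested. The groups overlapped (exact permutation p of 0.257, adjusted 0.419). BORA exons overlap those of DIS3 on the opposite strand. DIS3 was at 7.04 to 9.13 TPM in CR31B and 5.04 to 6.73 TPM in DMSO (log2 fold change 0.39, limma adjusted p of 0.113), and since the labels do not say whether counting used strand, the BORA value is uncertain.

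HMMR and NUSAP1 bind spindle microtubules, HMMR as a partner that helps to place TPX2. HMMR (ENSG00000072571.20, chr5:163460203-163491945) stood at 14.1, 10.8, 9.52 and 9.25 TPM in CR31B and at 13.2, 11.8, 7.64 and 12.5 TPM in DMSO, in the order of replicates 1 to 4. NUSAP1 (ENSG00000137804.14, chr15:41332694-41381050) stood at 87.3, 82.6, 62.7 and 66.9 TPM in CR31B and at 94.3, 85.4, 64.7 and 93.4 TPM in DMSO. The groups overlapped for both genes, HMMR was higher in 2 of 4 pairs, and NUSAP1 was lower in 4 of 4. The log2 fold changes were -0.033 for HMMR (95% confidence interval -0.44 to 0.38) and -0.17 for NUSAP1 (-0.52 to 0.18), with limma adjusted p of 0.937 and 0.565. The NUSAP1 estimate was -0.090 without CR31B replicate 3, -0.11 without DMSO replicate 1 and -0.29 without DMSO replicate 3, and that of HMMR ran from -0.19 to 0.044 with 1 library left out. Set against TPX2 in the same library, HMMR was at 0.332 ± 0.0924 in CR31B and 0.347 ± 0.0630 in DMSO, and NUSAP1 at 2.28 ± 0.559 and 2.61 ± 0.324 (SD, n = 4 each). Both ratios overlapped between groups (exact permutation p of 0.743 and 0.314, adjusted 0.743 and 0.419).

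**Figure D3:**
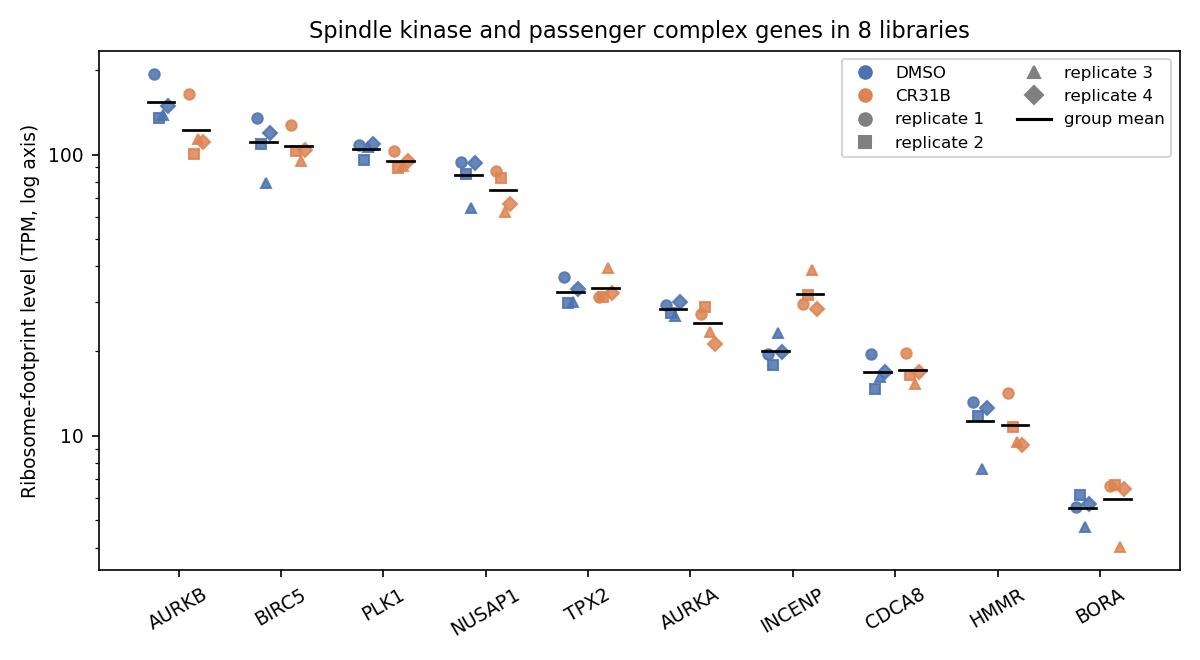
TPM of the 10 genes (vertical log axis) in each of the 4 DMSO and 4 CR31B libraries, ordered by the DMSO mean, with marker shapes for replicate numbers and bars for group means. The genes span from 4.03 TPM (BORA) to 193.0 TPM (AURKB), and only INCENP has separate groups.

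The order of the 10 levels in DMSO, in TPM, was AURKB, BIRC5, PLK1, NUSAP1, TPX2, AURKA, INCENP, CDCA8, HMMR and BORA. Of neighbours in that order, BIRC5 and PLK1, TPX2 and AURKA, and INCENP and CDCA8 had ranges that overlapped over the 4 DMSO libraries, and the other neighbours did not. In CR31B the order was the same except that INCENP and AURKA changed places. AURKA lay above INCENP in 4 of 4 DMSO libraries, and INCENP lay above AURKA in 4 of 4 CR31B libraries. AURKB and BIRC5, whose DMSO ranges nearly touched (lowest AURKB library 134.58 TPM, highest BIRC5 library 134.5 TPM), overlapped in CR31B. TPM divides by the whole transcript, whereas translating ribosomes sit on the coding part, which made up 16.3% of the BIRC5 transcript and 84.4% of the AURKB transcript. Scaled by the coding length of the representative transcripts instead, BIRC5 would lead at 677 in DMSO, ahead of AURKB at 182 and PLK1 at 129. AURKA, TPX2 and CDCA8 would lie between 49.2 and 52.4. The annotation behind the deposited TPM is not given, so the lengths it divided by may differ, and the order after this scaling is uncertain. Differences between treatments within a gene do not change with this scaling.

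Footprints are short, so stretches of 28 bases shared with other genes bear on how surely reads were assigned. No 28-base stretch of the coding sequences of TPX2, INCENP, BIRC5, BORA or HMMR occurred in a transcript of another GENCODE gene. For AURKA 33.1% of stretches also occurred elsewhere, mainly in its pseudogene AURKAP1, which was listed at 0 to 0.63 TPM. For NUSAP1 91.0% also occurred in AC087721.2, a gene that shares its exons and was listed at 0 to 0.17 TPM. The share was 6.67% for PLK1, 1.72% for CDCA8 and 1.09% for AURKB, and the pseudogenes that hold most of those stretches were listed at 0.03 TPM or less. INCENP and AURKB exons overlapped no other annotated gene. The antisense gene HMMR-AS1 was listed at 0 in all 8 libraries, as was the antisense gene over PLK1.

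The second comparison placed the 10 genes beside lists of genes around them, described by counts since the lists were written with earlier results known. Against 7.46% of all genes tested, 9.09% passed among Aurora A partners, 9.68% among spindle assembly genes, 23.1% among PLK1 regulators and targets, 18.2% around the passenger complex, 11.1% of degradation genes and 10.5% of mitotic transcription genes. Median log2 fold changes were -0.045, -0.072, -0.084, -0.11, -0.038 and 0.12 in that order, beside 0.029 for all genes. A limma unadjusted p under 0.05 was reached by 4 of 13 PLK1 regulators and targets and 5 of 22 genes around the passenger complex. It was reached by 2 of 9 degradation genes and 5 of 19 mitotic transcription genes, against 23.4% of all genes tested. Among partners and regulators of Aurora A, 1 of 11 tested genes was lower and 0 were higher. That gene, CDC25B, a phosphatase that Aurora A activates, fell from 71.3 ± 7.91 to 45.8 ± 9.40 TPM (log2 fold change -0.64, limma adjusted p of 0.0347). CDC25B lost its call when CR31B replicate 2 or 4 or any 1 DMSO replicate was left out (limma adjusted p of 0.0525 to 0.0921), and with no filter on low values (0.115). At an unadjusted p under 0.05 there were 4 of the 11, against 23.4% of all genes tested, and the replicate block took the calls to 3. FBXW7, the ubiquitin ligase subunit that targets Aurora A, had a log2 fold change of -0.67 (limma adjusted p of 0.0552, and 0.0443 with the replicate block). CLTC, which forms a spindle complex with TACC3 and CKAP5, had a log2 fold change of 0.77 (limma adjusted p of 0.0868, and 0.00885 with the replicate block), beside 0.0091 for TACC3 and 0.32 for CKAP5.

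In the list of spindle assembly genes, 3 of 31 were lower and 0 higher, with 7 of the 31 at an unadjusted p under 0.05, near the 23.4% of all genes. KPNB1, an importin subunit of the Ran pathway, fell from 235 ± 20.1 to 157 ± 28.4 TPM (log2 fold change -0.59, limma adjusted p of 0.0295). KPNB1 lost its call when any 1 of CR31B replicates 2, 3 and 4 and DMSO replicates 1, 2 and 4 was left out (limma adjusted p of 0.0529 to 0.0922), and with no filter on low values (0.0846). MAPRE1, which tracks growing microtubule ends, fell from 98.4 ± 6.79 to 64.3 ± 7.23 TPM (log2 fold change -0.61, limma adjusted p of 0.0112). The third was HAUS4 of the augmin complex (log2 fold change -0.52), outside the naming rule, which lost its call when any 1 of CR31B replicates 2, 3 and 4 and DMSO replicates 1 and 4 was left out (limma adjusted p up to 0.0992), and with no filter on low values (0.0602). Other Ran pathway genes did not pass: RAN had a log2 fold change of -0.12, RCC1 0.045 and KPNA2 -0.24. RANBP1 and RANGAP1, which help Ran to hydrolyse GTP, were at -0.63 and -0.45 (limma adjusted p of 0.0927 and 0.0921) and passed with the replicate block (0.0341 and 0.0333), which took the calls in this list to 5.

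Of 13 regulators and targets of PLK1, 1 was higher and 2 were lower. PKMYT1, an inhibitory kinase of CDK1, fell from 37.3 ± 5.34 to 23.5 ± 2.14 TPM (log2 fold change -0.64, limma adjusted p of 0.0160), and CDK1 itself from 47.5 ± 6.68 to 32.0 ± 3.09 TPM (log2 fold change -0.55, limma adjusted p of 0.0304). PPP1R12A, a phosphatase subunit that opposes PLK1, rose from 22.2 ± 1.83 to 30.9 ± 3.26 TPM (log2 fold change 0.46, limma adjusted p of 0.0393). PKMYT1 lost its call without DMSO replicate 1 (limma adjusted p of 0.0508). CDK1 lost its call when any 1 of CR31B replicates 3 and 4 and DMSO replicates 1, 2 and 4 was left out (0.0709 to 0.0992), and PPP1R12A when any 1 of the 8 libraries was (0.0530 to 0.112). With no filter on low values CDK1 and PPP1R12A did not pass (limma adjusted p of 0.0757 and 0.0689), nor did PPP1R12A in limma without a trend (0.0533). The cyclin genes CCNB1 and CCNA2 had log2 fold changes of -0.094 and 0.084 and did not pass.

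The genes that recruit the passenger complex or are acted on by it held the widest changes, with 1 of 22 higher and 3 lower. KNL1, a kinetochore scaffold, read 25.7, 28.5, 28.8 and 21.4 TPM for CR31B replicates 1 to 4, and 11.4, 10.99, 10.1 and 10.5 TPM for DMSO replicates 1 to 4. It rose by a log2 fold change of 1.199, with an SE of 0.12 and a limma adjusted p of 0.000756. XPO1, the exportin also known to bring the complex to centromeres, fell from 54.8 ± 3.82 to 24.7 ± 2.09 TPM (log2 fold change -1.12 with an SE of 0.11, limma adjusted p of 0.000592). USP9X, a deubiquitinase that acts on survivin, fell from 15.1 ± 4.91 to 6.37 ± 1.01 TPM (log2 fold change -1.09, limma adjusted p of 0.00922). The third to fall was PPP1CC, a catalytic subunit of the phosphatase that opposes Aurora B (log2 fold change -0.65), outside the naming rule, which did not pass without CR31B replicate 4 or DMSO replicate 2 or 4 (limma adjusted p up to 0.0592). HASPIN and BUB1, the kinases that mark centromeres for the complex, had log2 fold changes of 0.11 and 0.27 and did not pass.

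**Figure D4:**
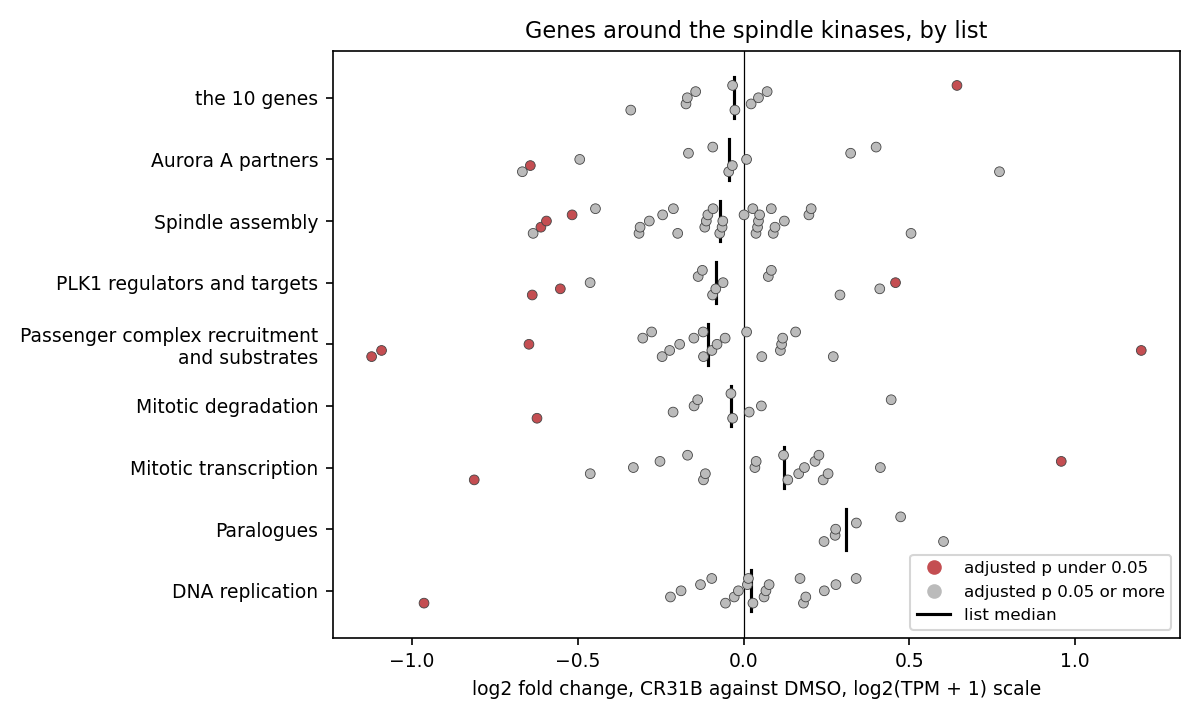
Log2 fold changes (CR31B against DMSO, log2(TPM + 1) scale) of the 10 genes and of the tested genes of 8 lists (the marker lists are not drawn), with red points for a limma adjusted p under 0.05 and black bars for list medians. The medians drawn lie between -0.11 and 0.31, and the outermost red points, KNL1 at 1.199 and XPO1 at -1.12, belong to the passenger complex list.

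Among genes that destroy mitotic proteins 11.1% passed, and among genes that transcribe them 10.5%, against 7.46% of all genes tested. FZR1, the activator of the ligase that targets Aurora A and TPX2 late in mitosis, fell from 18.8 ± 1.87 to 11.8 ± 1.33 TPM (log2 fold change -0.62, limma adjusted p of 0.0154) and was the 1 of 9 degradation genes that passed, though not without DMSO replicate 4 (limma adjusted p of 0.0568). Of 19 genes of mitotic transcription, LIN54, the subunit that binds CHR elements, rose from 3.14 ± 0.346 to 7.42 ± 3.31 TPM (log2 fold change 0.96, limma adjusted p of 0.0288). CR31B replicate 3 read 12.3 TPM, and the other CR31B libraries 5.11 to 6.21 TPM. LIN54 lost its call when any 1 of the 4 DMSO replicates was left out (limma adjusted p of 0.0552 to 0.0789), and without CR31B replicate 3 its log2 fold change was 0.71. E2F2 fell from 6.49 ± 1.18 to 3.30 ± 0.926 TPM (log2 fold change -0.81, limma adjusted p of 0.0243), but lost its call when any 1 of CR31B replicates 3 and 4 and DMSO replicates 1, 3 and 4 was left out (0.0522 to 0.0693). With no filter on low values neither LIN54 nor E2F2 passed (limma adjusted p of 0.117 and 0.0857). FOXM1, which drives genes such as PLK1 and AURKB, had a log2 fold change of -0.46 (limma adjusted p of 0.148, and 0.0461 with the replicate block).

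Close relatives of the 10 genes passed in 0 of 6 tested cases in limma, against 7.46% of all genes tested. At an unadjusted p under 0.05 there were 2 of the 6, against 23.4% of all genes. Log2 fold changes of the 6 relatives ran from 0.24 for BIRC6 to 0.60 for PLK2, and their median of 0.31 lay above that of all genes, 0.029. AURKC, the third Aurora kinase, averaged 0.323 TPM in CR31B and 0.383 TPM in DMSO and was not tested. Of 20 genes of DNA replication 1, or 5%, passed, against 7.46% of all genes tested. A limma unadjusted p under 0.05 was reached by 2 of the 20, against 23.4% of all genes tested. The gene that passed, GINS1, fell from 44.9 ± 3.73 to 22.7 ± 3.51 TPM (log2 fold change -0.96, limma adjusted p of 0.00245). The median of the replication list was 0.021.

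The protein-coding genes whose levels followed TPX2 most closely over the 8 libraries were LSM12, PPP1R15A, CFAP68, WDSUB1 and FLAD1. Pearson correlations of log2(TPM + 1) were 0.98, 0.95, 0.93, 0.93 and 0.92, the highest among 10381 genes ranked, and all points share their libraries and TPM scaling. Picked as the highest of so many over only 8 points, these values are a description. TPX2 was highest in CR31B replicate 3, at 39.55 TPM, and the correlations were not repeated without that library. The other 9 genes followed TPX2 less, from 0.36 for INCENP to -0.61 for BORA, and AURKA stood at -0.18.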

How the data were processed

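Ribosome-protected fragments of 28 to 30 nt were sequenced as single reads, per the labels' protocols. The authors deposited 1 table of TPM per gene and library. The submitters' processing notes name cutadapt 3.2, Bowtie2 2.3.4.1, STAR 2.7.1a, RSEM 1.2.28 and DESeq2 1.32.0 and the build hg38, without their roles. The annotation and the strand setting are not given in the sources used here. TPM keeps no depth, so only the spread between libraries measures precision.

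Symbols were matched for 60481 of 60651 identifiers with versions ignored, and GENCODE release 29 gave types for 58405. Values were fitted as log2(TPM + 1) with limma 3.58.1 in R 4.3.3 (trend on, treatment as the only term) for genes averaging 1 TPM or more, with Benjamini-Hochberg adjustment over all of them. Fold changes on this scale understate those of low genes. The fit was tested on simulated data. Single values were compared with exact permutation tests (two-sided, 70 assignments), and features were computed with Python 3.11.15. The representative transcript of a gene was the basic CCDS transcript with the best APPRIS rank, then support level, then length.

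The genes, lists and tests were chosen with earlier results of these data known. Named genes were the 10, and, of the genes in each list with an adjusted p under 0.05, the 2 that rose most and the 2 that fell most, and the 5 genes most correlated with TPX2. Genes outside this rule were chosen after their values were seen. With group means taken out, same-numbered libraries of the 2 groups correlated across genes at 0.333, 0.324, 0.301 and 0.105. Differently numbered ones ran from -0.206 to 0.134, the highest (CR31B replicate 4 with DMSO replicate 1) above that of pair 4. Since every same-numbered pair was over 0.1, the numbers were treated as pairs in an alternative fit. The other alternatives were pseudocounts, filters, scalings, a fit without trend, array weights, and leaving out each library.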

Additional observations from a re-analysis of the deposited data

Results flagged for a closer look

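A single library stood far from the other 3 of its group in 2 of 36 groups of 4 values, about the 1.8 expected by chance. Both were CR31B replicate 3, which had the lowest number of genes above 0, 17857. TPX2 was high there at 39.55 TPM, while CR31B replicates 1, 2 and 4 lay from 31.07 to 32.09 TPM. BORA was low there at 4.03 TPM, against 6.44 to 6.70 TPM in the others. Without this library the log2 fold change was -0.036 for TPX2 and 0.22 for BORA, and neither passed.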

How the results depend on the processing

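The number of genes called went from 879 to 442 without a filter on low values (which ended the calls of CDC25B, KPNB1, HAUS4, CDK1, PPP1R12A, LIN54 and E2F2), to 1453 with the replicate block and to 1321 with array weights, and ran from 404 to 785 when 1 library was left out. The number called among the 10 genes was 2 with the replicate block and 0 to 1 with 1 library left out, at 0 without DMSO replicate 2 or 4. INCENP passed in 16 of 18 alternatives, with log2 fold changes from 0.55 to 0.71. AURKB passed in 1 of 18, the block, which changed no other call of the 10. It was below 0 in all 18 (from -0.49 to -0.23), as were AURKA, PLK1 and NUSAP1. TPX2 ran from -0.036 to 0.10 with 1 library left out. Near 0 the sign moved: CDCA8 ran from -0.044 to 0.093, BIRC5 from -0.18 to 0.076 and HMMR from -0.19 to 0.044 with 1 library left out. CDCA8 was -0.0071 after quantile normalization, -0.044 without CR31B replicate 1 and -0.036 without DMSO replicate 2. BIRC5 was 0.0085 after rescaling over protein-coding genes, and 0.030, 0.076 and 0.020 without CR31B replicate 3, DMSO replicate 1 and DMSO replicate 4. HMMR was 0.021 and 0.034 without CR31B replicates 3 and 4, and 0.044 and 0.022 without DMSO replicates 1 and 4. HMMR per TPX2 (log2 difference -0.078) ran from -0.23 to 0.057 with 1 library left out. With 4 against 3 libraries the smallest exact p is 0.0571, so those fits say nothing of the ratios' significance. Of the listed genes, KNL1, XPO1, USP9X, MAPRE1 and GINS1 passed in 18 of 18 alternatives, PKMYT1 and FZR1 in 17, PPP1CC in 15, CDK1, HAUS4 and LIN54 in 12, CDC25B, KPNB1 and E2F2 in 11 and PPP1R12A in 8. E2F2 and LIN54 could be tested in 17. The cause of these changes was not tested.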
